A study of Mus musculus with 4 samples.

Results

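The transcripts of 10 genes of glycolysis and the hypoxia response, Slc2a1, Hk2, Aldoa, Tpi1, Pgk1, Eno1, Pkm, Ldha, Bnip3 and Slc16a3, were followed through the cell classes of the embryonic mouse neocortex. They were taken by symbol and occupied 11 of the 32285 rows of the gene table, because Aldoa stood under 2 gene identifiers. The Aldoa row ENSMUSG00000030695 was used, and the other held 43 to 77 unique molecular identifiers (UMIs, each standing for 1 captured transcript) per library. The data were single-cell RNA libraries of rostral neocortex collected at embryonic day E15.5, with 2 i4F-Nes and 2 control (CTR) libraries. The i4F-Nes embryos carried Nestin-Cre, i4F and ROSA-STOP-rtTA, and the CTR embryos carried i4F and ROSA-STOP-rtTA without Cre. Doxycycline at 0.2 mg/ml was in the drinking water of the pregnant females of both groups over 4 days, starting at E10.5 and ending at E14.5. The i4F allele is known as a doxycycline-driven cassette of the reprogramming factors Oct4, Sox2, Klf4 and c-Myc, and Nestin-Cre acts mainly in neural progenitors, so the factors are induced in those cells and carried into their progeny. The labels do not say whether the 2 libraries of a group came from separate embryos, so the p-values measure the spread between these libraries, which may be technical.

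Glycolysis splits glucose into pyruvate in the cytosol. Slc2a1 encodes the glucose importer GLUT1, Hk2 the hexokinase that traps glucose, Aldoa, Tpi1, Pgk1, Eno1 and Pkm enzymes of the steps down to pyruvate, Ldha the lactate dehydrogenase subunit that turns pyruvate into lactate, and Slc16a3 the lactate exporter MCT4. Bnip3 encodes a mitochondrial outer membrane protein that marks mitochondria for autophagy. All of them are textbook targets of the hypoxia-inducible factor HIF-1, which is stabilised at low oxygen. Cortical progenitors are known to lean on glycolysis more than postmitotic neurons do.

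The 4 libraries held 35255 barcodes, of which 27017 were kept with 393918080 UMIs and library medians of 11405 to 15188 UMIs per cell. Cells were placed in classes by UMIs of marker genes other than the 10 genes. Radial glia, the ventricular stem cells, were gated on Pax6, Sox2, Hes1, Hes5 and Slc1a3 and numbered 2077 (7.69% of kept cells, 382 to 716 per library). Intermediate progenitors, their transit-amplifying daughters, were gated on Eomes and numbered 647 (125 to 212 per library), and excitatory neurons, gated on Neurod2 and Neurod6, numbered 16347 (60.5%). Although the labels give the cell type as cortical neurons, 4992 cells (18.5%) passed no gate. Reprogrammed cells were gated on 8 markers such as Krt8 and Crabp2 that earlier results of these data supplied, and were split by Ebf-family genes into 941 progenitor-like and 597 neuron-like cells. All but 2 of them came from the i4F-Nes libraries. Genes outside the gates were checked in each class. Fabp7, a radial glia marker, stood at 4475 to 6512 CPM (its UMIs scaled to all UMIs of the class in that library) in radial glia and at 50.5 to 81.7 CPM in neurons, and Tubb3, a neuronal tubulin, at 1896 to 2383 CPM in neurons and 29.9 to 81.6 CPM in radial glia. Nanog, a pluripotency gene, stood at 93.1 and 33.3 CPM in the progenitor-like reprogrammed cells of i4F-Nes replicates 1 and 2 and at no more than 0.883 CPM in radial glia. Neurog2, a factor of neurogenic progenitors, stood at 1331 to 2602 CPM in intermediate progenitors and at no more than 184 CPM in radial glia. In the neuron-like reprogrammed cells Tubb3 stood at 3007 and 2988 CPM. Any pair of libraries shared 8 to 19 cell barcodes, and the profiles behind a shared barcode correlated at medians of 0.566 to 0.668.

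HIF-1 is known to bind the short cores ACGTG and GCGTG. The 250 bases before the RefSeq transcription starts (build GRCm38.p6) were searched for both on both strands, and all 10 genes had such a window. ACGTG lay in a window of 8 of the 10 genes, against 18.5% of all 27025 genes with windows, and GCGTG in windows of 4 genes (Bnip3, Eno1, Ldha and Slc2a1), against 30.9% of all genes. Tpi1 held neither. The windows of Ldha (chr7:46845554-46845803, plus strand), Pgk1 (chrX:106186850-106187099, plus strand), Bnip3 (chr7:138909507-138909756, minus strand) and Slc16a3 (chr11:120948817-120949066, plus strand) are shown because the values below turn on Ldha, Bnip3 and Slc16a3, and Pgk1 tracks the other members most closely. Capitals mark ACGTG and GCGTG or their reverse complements, 5′ to 3′ on the gene's strand.
Ldha: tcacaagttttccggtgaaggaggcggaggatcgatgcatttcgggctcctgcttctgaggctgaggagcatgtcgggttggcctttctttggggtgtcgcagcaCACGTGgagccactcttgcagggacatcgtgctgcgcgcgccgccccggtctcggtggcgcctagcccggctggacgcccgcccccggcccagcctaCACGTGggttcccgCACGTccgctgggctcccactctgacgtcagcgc
Pgk1: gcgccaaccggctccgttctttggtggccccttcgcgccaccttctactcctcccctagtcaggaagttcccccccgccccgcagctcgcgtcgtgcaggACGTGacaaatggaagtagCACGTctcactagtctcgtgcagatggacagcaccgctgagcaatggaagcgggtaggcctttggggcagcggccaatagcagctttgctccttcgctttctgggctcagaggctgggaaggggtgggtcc
Bnip3: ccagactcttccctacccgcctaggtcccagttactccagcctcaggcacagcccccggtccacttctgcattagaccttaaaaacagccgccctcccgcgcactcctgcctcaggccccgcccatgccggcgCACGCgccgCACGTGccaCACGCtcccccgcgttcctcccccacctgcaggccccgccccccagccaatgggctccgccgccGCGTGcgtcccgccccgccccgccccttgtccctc
Slc16a3: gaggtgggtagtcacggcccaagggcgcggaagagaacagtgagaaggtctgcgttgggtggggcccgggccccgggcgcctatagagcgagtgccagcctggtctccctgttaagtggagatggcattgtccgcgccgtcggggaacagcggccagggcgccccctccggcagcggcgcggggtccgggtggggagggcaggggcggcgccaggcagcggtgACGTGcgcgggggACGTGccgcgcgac
Ldha held 5 matches to ACGTG, of which the E-box CACGTG (found in 2 of the 10 genes, Bnip3 and Ldha, and in 6.86% of all genes) gives 2 matches at each of its 2 occurrences, 1 per strand. Bnip3 held 2 matches to ACGTG, both in 1 CACGTG, and 3 to GCGTG. A match describes these letters only and is not evidence of binding.

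Radial glia and intermediate progenitors carried more of the glycolytic transcripts than neurons did. Of the UMIs of radial glia, 0.194% to 0.282% came from the 10 genes, compared with 0.0803% to 0.117% in neurons and 0.211% to 0.303% in intermediate progenitors. Of the 10 genes, 9 were higher in radial glia than in neurons and Bnip3 was lower, by edgeR's quasi-likelihood test on UMIs summed per class and library with the library as a block (adjusted p under 0.05 over all genes tested, here called). Classes this unlike differ at most genes: 76.0% of the 15563 genes tested were called, 35.3% higher in radial glia and 40.6% lower. The median log2 change was 1.25 over the 10 genes and -0.08 over all genes. All 10 were higher in intermediate progenitors than in neurons, where 64.8% of all genes were called, 29.8% higher and 35.0% lower, with a median log2 change of 1.21 over the 10 against -0.09. Calls for all 10 genes in both comparisons were kept when any 1 library was left out. With scaling by library size alone, the median of all genes moved by 0.24 in both comparisons on the log2 scale. The share of calls that were higher went from 46.5% to 58.4% in the first and from 46.0% to 60.2% in the second, while the calls and directions of the 10 genes did not change.

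The transporters stand at the entry and the exit of the pathway, and both were higher in radial glia. Slc16a3, the lactate exporter, stood in radial glia at 10.4 and 8.48 CPM in i4F-Nes replicates 1 and 2 and at 4.43 and 4.81 CPM in CTR replicates 1 and 2. Its neuronal level was 0.609 and 0.567 CPM in i4F-Nes libraries and 0.402 and 0.587 CPM in CTR. Every radial glia library was thus above every neuron library, with a 10.4-fold fitted difference (log2 3.37 ± 0.20 SE, edgeR adjusted p = 1.3e-09). After thinning of each cell to 5000 UMIs, 2.34% to 4.86% of radial glia held an Slc16a3 UMI, against 0.189% to 0.314% of neurons. Before thinning these shares were 6.28% to 12.6% and 0.657% to 0.941%, at median depths of 14005 to 17768 UMIs in radial glia and 11806.5 to 15180 in neurons. Thinning left out 37 to 65 radial glia and 78 to 644 neurons per library. Neurons are known for another lactate transporter, MCT2, and whether their Slc16a3 UMIs are background was not tested. Slc2a1 stood at 43.6 and 25.6 CPM in i4F-Nes radial glia and 34.2 and 24.8 CPM in CTR, and at 7.47 to 14.54 CPM in neurons, a 2.56-fold difference without overlap (log2 1.36 ± 0.10, edgeR adjusted p = 2.0e-08).

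Hk2, which commits glucose to the cell, had the largest fold among the enzymes of the 10 genes. It stood at 30.5 and 39.9 CPM in i4F-Nes radial glia and at 30.1 and 34.6 CPM in CTR. Neurons held 3.41 and 4.54 CPM in i4F-Nes and 5.21 and 4.55 CPM in CTR. All radial glia libraries were above all neuron libraries, by 6.44-fold (log2 2.69 ± 0.13, edgeR adjusted p = 1.3e-10), and intermediate progenitors, at 21.1 to 31.0 CPM, overlapped with radial glia and lay 5.23-fold above neurons.

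The enzymes between hexokinase and pyruvate kinase differed by smaller folds. Eno1, the enolase, stood at 428 and 252 CPM in i4F-Nes radial glia and 475 and 222 CPM in CTR, and at 55.2 to 110.1 CPM in neurons, a 3.86-fold difference (log2 1.95 ± 0.08). Its replicate 1 values exceeded replicate 2 by 1.70-fold in i4F-Nes and 2.14-fold in CTR radial glia, so the 2 libraries of a group spread widely while the class difference held inside each. A near-identical copy, Eno1b, is a separate row with at most 7.004 CPM in these classes, and reads shared by the pair could have been lost or split in counting. Pgk1, which makes the pathway's first ATP, stood at 274 to 363 CPM in radial glia and 102 to 143 CPM in neurons (2.28-fold), and Tpi1, the triose phosphate isomerase, at 255 to 372 and 100.01 to 122 CPM (2.35-fold). Pkm, pyruvate kinase of the last step, had a smaller step of 1.66-fold, from 269 to 457 CPM in neurons to 546 to 913 CPM in radial glia. None of these 4 genes overlapped between the 2 classes, where 76.0% of all genes were called. The share of all genes without overlap was not counted.

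Bnip3 was highest in intermediate progenitors, while Aldoa overlapped there with radial glia. Aldoa, an aldolase, reached 288 and 336 CPM in i4F-Nes and 231 and 217 CPM in CTR intermediate progenitors, at 147 to 227 CPM in radial glia, which overlapped, and at 85.6 to 111 CPM in neurons. It was lower in radial glia than in intermediate progenitors (log2 -0.52 ± 0.09, edgeR adjusted p = 0.000405). Among cells without a Mki67 or Top2a UMI it was not, with a log2 change of 0.01 (edgeR adjusted p = 0.977). Nor was it lower after thinning before gating, which put more cells in the intermediate progenitor class (log2 -0.01, edgeR adjusted p = 0.946). Bnip3 reached 62.1 and 62.5 CPM in i4F-Nes and 35.1 and 39.5 CPM in CTR intermediate progenitors, above all libraries of neurons (27.2 to 29.5 CPM) and of radial glia (17.7 to 30.03 CPM). It was lower in radial glia than in intermediate progenitors (log2 -1.08 ± 0.09, edgeR adjusted p = 1.0e-06) and than in neurons (log2 -0.56 ± 0.08, edgeR adjusted p = 1.9e-05). Against neurons that call was lost without the cycling cells. When cells that held a Mki67 or Top2a UMI were left out the log2 change was 0.10 (edgeR adjusted p = 0.512), and after thinning it was -0.21 (adjusted p = 0.125).

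Between radial glia and intermediate progenitors 3 of the 10 genes were called, where 38.7% of all genes were (20.7% higher in radial glia and 18.1% lower), so their share lies near the background. Besides Aldoa and Bnip3 the third was Slc2a1, higher in radial glia (log2 0.41 ± 0.13, edgeR adjusted p = 0.0182), which was lost when either i4F-Nes replicate 1 (log2 0.30, adjusted p = 0.196) or CTR replicate 2 (log2 0.34, adjusted p = 0.114) was left out. Of 15 alternative settings 12 kept the Slc2a1 call. When cells were thinned to 5000 UMIs before gating, 8 of the 10 genes were called, 7 of them higher in radial glia. This also changed the cells in the class: intermediate progenitors then numbered 150 to 313 per library, against 125 to 212 without thinning. Thinning changed depth and cells together, and the part of each was not tested. The share of all genes called after thinning is not given here. Ldha stood at 376 to 526 CPM in radial glia, 434 to 651 CPM in intermediate progenitors and 149 to 179.7 CPM in neurons, so the first 2 classes overlapped and neurons lay below both (2.42-fold below radial glia, log2 1.28 ± 0.10).

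**Figure D1:**
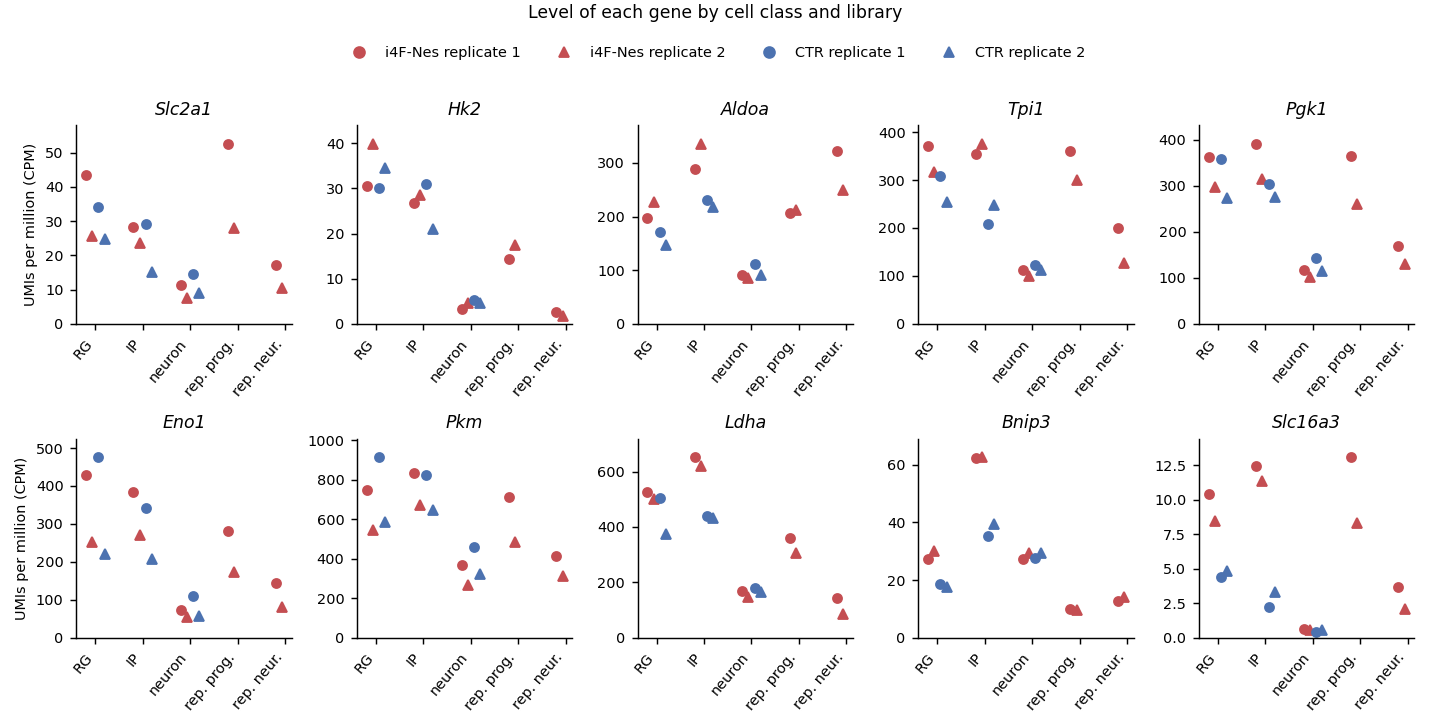
Level of each gene (y axis, CPM, linear) in radial glia (RG), intermediate progenitors (IP), neurons, and reprogrammed progenitor-like and neuron-like cells (x axis), 1 point per library. Neurons lie lowest among the first 3 classes for every gene but Bnip3, which peaks in intermediate progenitors at 35.1 to 62.5 CPM.

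Within radial glia the transcripts took a larger share of the UMIs in cells without proliferation transcripts. Radial glia with at least 1 UMI of Mki67 or Top2a, genes of the cycling cell, made up 68.6% to 72.2% of the class. The other radial glia had more CPM in all 4 libraries for 9 of the 10 genes, the exception being Slc2a1 with ratios of 0.900 to 1.32. The ratio of cells without to cells with such a UMI was 1.67 to 2.61 for Aldoa, 1.502 to 2.34 for Bnip3 and 1.57 to 1.82 for Ldha. Ldha had 802 and 717 CPM in i4F-Nes and 705 and 542 CPM in CTR radial glia without such a UMI, and at 332 to 448 CPM in those with one. Among intermediate progenitors 4 genes (Aldoa, Tpi1, Pgk1 and Bnip3) were higher in all 4 libraries and none lower in all 4. Among progenitor-like reprogrammed cells of the 2 i4F-Nes libraries, 3 genes (Hk2, Aldoa and Bnip3) were higher in both. There 5 genes (Slc2a1, Tpi1, Pgk1, Pkm and Ldha) were lower in both. These are descriptions without a test, and the share of all genes that differed in this way was not computed. A cell with fewer UMIs is less likely to show a Mki67 or Top2a transcript.

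**Figure D2:**
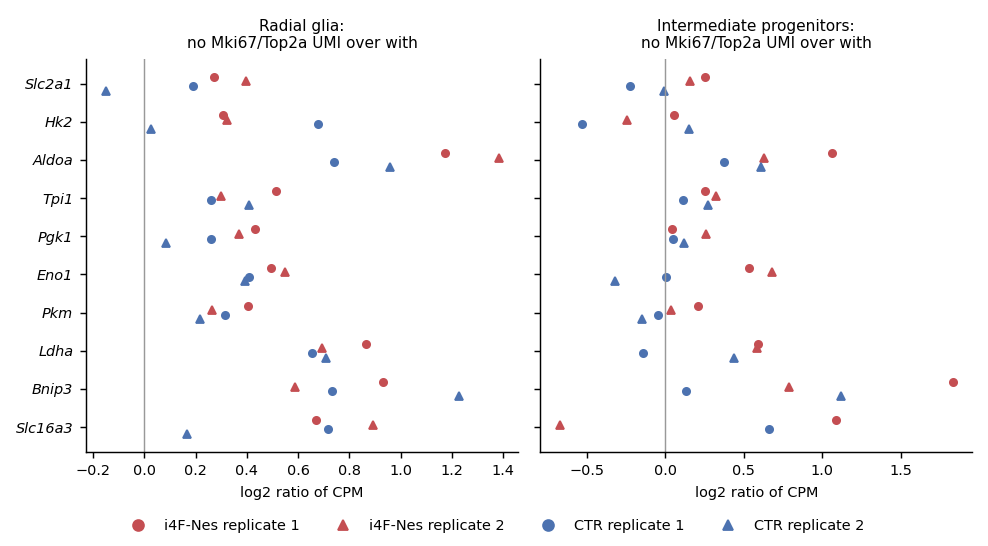
Log2 ratio of CPM (x axis) for each gene (y axis), 1 point per library: cells without over cells with a Mki67 or Top2a UMI in radial glia and intermediate progenitors (red, i4F-Nes; blue, CTR; circle, replicate 1; triangle, replicate 2). In radial glia 9 of the 10 genes lie right of 0 in all 4 libraries, and in intermediate progenitors 4 do. The share of all genes that do so was not computed. Points with 0 UMIs in either part are not drawn.

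Reprogrammed progenitor-like cells had lower Hk2, Eno1, Ldha and Bnip3 than radial glia, and the other 6 genes were not called. Of the 10 genes 4 were called, all lower, where 44.0% of all genes were called, 19.3% lower and 24.8% higher. Bnip3 stood at 9.79 and 9.69 CPM in these cells and at 27.2 and 30.03 CPM in i4F-Nes radial glia (log2 -1.46 ± 0.12, edgeR adjusted p = 7.6e-07). Hk2 stood at 14.3 and 17.5 CPM against 30.5 and 39.9 CPM (log2 -1.05 ± 0.17, edgeR adjusted p = 0.000269). For both genes the reprogrammed cells of each library lay below the radial glia of either. Ldha stood at 362 and 307 CPM against 526 and 502 CPM (log2 -0.54 ± 0.14, edgeR adjusted p = 0.00798). Eno1 stood at 281 and 172 CPM against 428 and 252 CPM (log2 -0.49 ± 0.11), lower within each library although the 2 classes overlapped across libraries. Slc16a3, at 13.1 and 8.29 CPM, and Pgk1, at 364 and 262 CPM, were not called. These cells were deeper than radial glia, with medians of 32413 and 24368.5 UMIs against 15302.5 and 14005. The 6 stress genes Fos, Jun, Egr1, Hspa1a, Hspa1b and Atf3 summed to 1309 and 1332 CPM in them against 864 and 677 CPM, with all 6 detected, and the part of the stress genes in the result was not tested. Thinning to equal depth left the 4 calls in place and added Slc2a1, higher in the reprogrammed cells (log2 0.55, edgeR adjusted p = 0.0390). In cells without a Mki67 or Top2a UMI 8 genes were called, all lower, and without the library block 2 were. The shares of all genes called under these settings are not given here.

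Reprogrammed neuron-like cells differed from neurons in both directions. Aldoa stood at 323 and 249.7 CPM in them and at 90.9 and 85.6 CPM in the neurons of the same libraries (log2 1.53 ± 0.12, edgeR adjusted p = 3.3e-07). Slc16a3 stood at 3.69 and 2.09 CPM against 0.609 and 0.567 CPM (log2 2.14 ± 0.32, edgeR adjusted p = 9.3e-05), but after thinning the log2 change was 1.44 with an adjusted p of 0.194. Bnip3 stood at 12.8 and 14.2 CPM against 27.2 and 29.5 CPM (log2 -1.24 ± 0.12, edgeR adjusted p = 2.2e-06). The groups did not overlap for any of these 3 genes, though the share of all genes without overlap was not counted. Bnip3 was lower in both reprogrammed classes than in the native class beside it. In all, 8 genes were called, 5 higher (Slc16a3, Aldoa, Eno1, Tpi1 and Pgk1) and 3 lower (Bnip3, Hk2 and Ldha), where 52.7% of all genes were called, 25.4% higher and 27.3% lower. Scaled by library size alone, 62.5% of all calls were higher in place of 48.2%, the median of all genes moved by 0.17, and 9 of the 10 genes were called, 6 higher. Thinning, or leaving out the library block, left 5. Tpi1 was lost without i4F-Nes replicate 1 (log2 0.20, adjusted p = 0.341), as was Pgk1 (log2 0.19, adjusted p = 0.258), and Hk2 without i4F-Nes replicate 2 (log2 -0.61, adjusted p = 0.190). These cells held medians of 23203 and 17143.5 UMIs against 14725.5 and 11806.5 in neurons, and stress genes summed to 391 and 333 CPM against 115 and 73.9 CPM, whose part in the result was not tested.

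**Figure D3:**
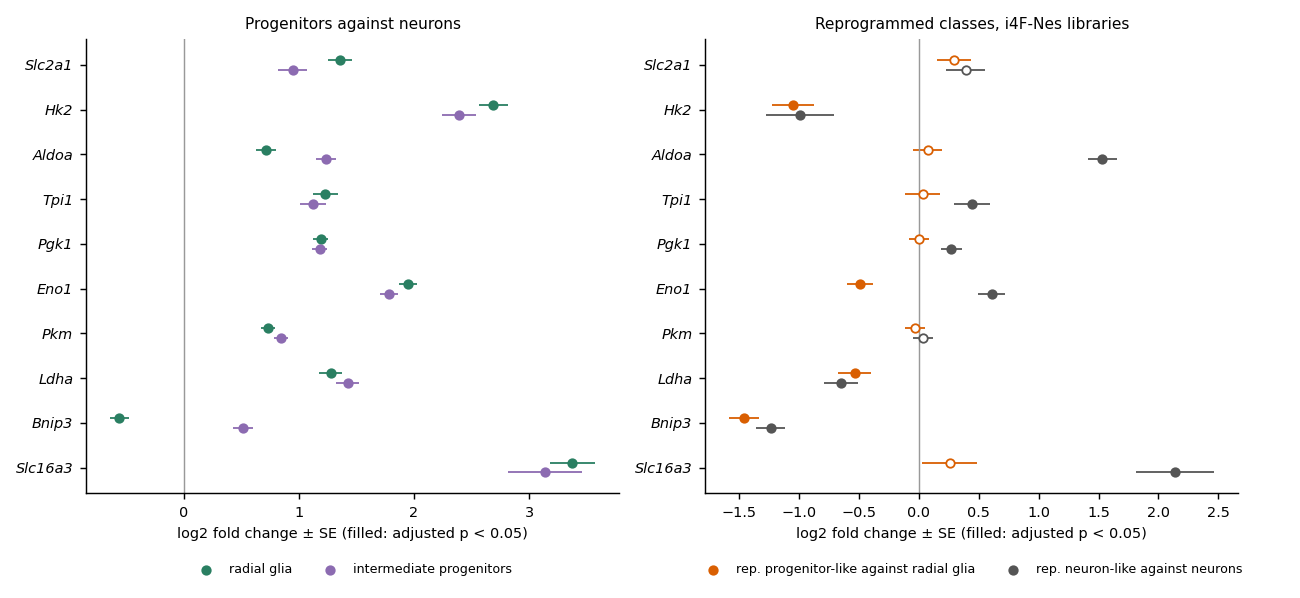
Fitted log2 fold change with its standard error (x axis) for each gene (y axis): radial glia and intermediate progenitors against neurons over 4 libraries (left), and reprogrammed cells of the 2 i4F-Nes libraries against radial glia or neurons (right). Filled points have an edgeR adjusted p under 0.05. The radial glia point of Bnip3 is the only one left of 0 on the left panel. On the right panel Bnip3 lies furthest left in both comparisons.

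The comparison of i4F-Nes with CTR within a class addresses whether cells of the native classes differed between the genotypes. In radial glia 0 of the 10 genes were called by edgeR, as were 0% of 13180 genes, while 3 of the 10 and 631 of all genes had an unadjusted p under 0.05. DESeq2 called 0 of the 10 and 20 genes in all. Slc16a3 (10.4 and 8.48 CPM in i4F-Nes, 4.43 and 4.81 CPM in CTR) had a log2 change of 1.02 ± 0.28 with an edgeR adjusted p of 0.900. Bnip3 (27.2 and 30.03 CPM against 18.5 and 17.7 CPM) had 0.63 ± 0.18 with an adjusted p of 0.937. Aldoa (197 and 227 CPM against 171 and 147 CPM) had 0.39 ± 0.16 with an adjusted p of 0.961. For these genes and Tpi1 both i4F-Nes libraries lay above both CTR libraries, 4 of 10 genes, where 21.5% of all genes did so, and none lay below both, where 12.4% did. The median log2 change of the 10 genes was 0.20, against -0.00 over all genes. Of the 10 changes 8 were positive, while Pkm (-0.23) and Eno1 (-0.06) were negative. These fits within a class held no replicate block. With such a block edgeR called Bnip3 and Slc16a3 in radial glia, Tpi1 in intermediate progenitors, and Pgk1 and Pkm in neurons. The block also added calls over all genes in each class, whose counts are given below with these values.

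In intermediate progenitors all 10 fitted changes were positive, with a median of 0.36 against -0.00 over all genes, but 0 were called (0% of 10889 genes). By unadjusted p under 0.05, 5 of the 10 and 632 of all genes passed, and DESeq2 called 0 of the 10 and 1 gene in all. Slc16a3 stood at 12.4 and 11.3 CPM against 2.24 and 3.29 CPM, from 39 and 21 UMIs against 6 and 5 (log2 2.14 ± 0.46, edgeR adjusted p = 0.205). Ldha stood at 651 and 620.1 CPM against 439 and 434 CPM (log2 0.53 ± 0.18, adjusted p = 0.631), and Tpi1 at 355 and 376 CPM against 208 and 249 CPM (log2 0.66 ± 0.19, adjusted p = 0.420). Bnip3 had a log2 change of 0.73 ± 0.20 (edgeR adjusted p = 0.354). The i4F-Nes libraries lay above both CTR libraries for 6 of 10 genes (Aldoa, Tpi1, Pgk1, Ldha, Bnip3 and Slc16a3), where 19.1% of all genes did so, and none lay below both, where 13.7% did. With CTR replicate 2 left out Slc16a3 had an edgeR adjusted p of 0.0126 (log2 2.41), but CTR was then 1 library with 6 UMIs, assumed to vary like the i4F-Nes libraries.

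Other values moved with the groups in these progenitors. The 8 reprogrammed gate markers summed to 22.6 and 20.7 CPM in i4F-Nes radial glia, all 8 detected, against 6.79 and 4.81 CPM in CTR, where 6 and 4 were detected and Krt8 and Cytl1 were at 0. In intermediate progenitors they summed to 32.2 and 31.8 CPM, with 8 and 7 detected, against 12.7 and 7.24 CPM, with 5 and 4 detected, and in neurons to 24.5 and 20.8 CPM against 9.21 and 7.73 CPM. In the progenitor-like reprogrammed cells the same markers summed to 2441 and 1896 CPM. Mki67 had 95.2 and 122 CPM in i4F-Nes and 27.6 and 86.2 CPM in CTR intermediate progenitors, and cells with a Mki67 or Top2a UMI made up 28.8% and 42.3% against 20.8% and 23.2%. The 6 stress genes summed to 449 and 352 CPM in i4F-Nes and 628 and 475 CPM in CTR intermediate progenitors, with 5 and 5 detected against 5 and 3. In radial glia the 5 gate markers of that class summed to 2543 and 2566 CPM against 2987 and 2838 CPM, all detected. The 14 other non-neural markers summed there to 13.8 and 19.6 CPM, with 8 and 6 detected, against 6.98 and 12.2 CPM, with 7 and 8 detected. The part of these values in the differences was not tested.

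In neurons 9 of the 10 fitted changes were negative, from -0.43 for Eno1 to 0.20 for Slc16a3, with a median of -0.26 against -0.00 over all genes. Without a replicate block, edgeR called none of the 10 (0% of 16431 genes). None had an unadjusted p under 0.05 by edgeR, where 308 of all genes did, and DESeq2 called 0 of the 10 and 19 genes in all. With the block edgeR called Pgk1 and Pkm, both lower in i4F-Nes, as given below with the count over all genes. Hk2, Aldoa and Tpi1 were lower in both i4F-Nes libraries than in both CTR libraries, where 7.35% of all genes were, and none was higher in both, where 19.1% were. The difference of the i4F-Nes effect between radial glia and neurons was positive for all 10 genes but called for 0 (0% of 15563 genes), with 5 of the 10 and 515 of all genes at an unadjusted p under 0.05. It was widest beyond its error for Bnip3 (log2 0.66 ± 0.16, edgeR adjusted p = 1.00) and Aldoa (log2 0.61 ± 0.17, edgeR adjusted p = 1.00). With i4F-Nes replicate 1 left out Aldoa had an edgeR adjusted p of 0.0202 (log2 0.75), but i4F-Nes was then 1 library per class, assumed to vary like the other profiles of the fit. The same difference between intermediate progenitors and neurons, added after the data were seen, was positive for all 10 genes with a median of 0.63, and called for 0 (0%), with 8 of the 10 and 852 of all genes at an unadjusted p under 0.05.

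**Figure D4:**
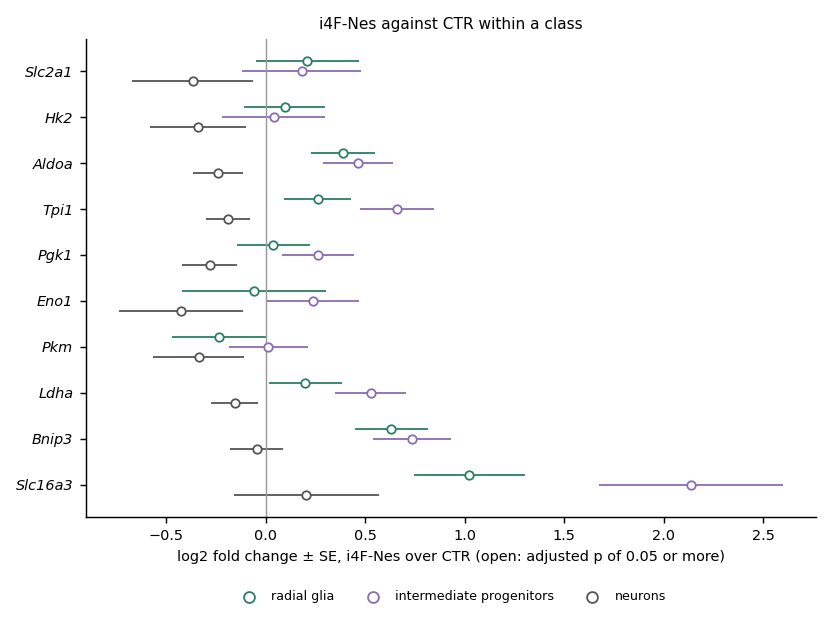
Fitted log2 fold change of i4F-Nes over CTR with its standard error (x axis) for each gene (y axis) in radial glia, intermediate progenitors and neurons, 2 libraries a group. All points are open because no edgeR adjusted p is under 0.05 in these fits, which hold no replicate block. In intermediate progenitors all 10 lie right of 0 and in neurons 9 lie left of it.

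Summed over all kept cells, which mixes the classes, Slc16a3 alone of the 10 was called. Both i4F-Nes libraries, at 4.25 and 3.42 CPM, lay above both CTR libraries, at 1.11 CPM each, a 3.24-fold difference without overlap (log2 1.70 ± 0.26, edgeR adjusted p = 0.0423), where 2.59% of 18616 genes were called, 2.58% higher and 0.00537% lower. Aldoa, Tpi1 and Slc16a3 were higher in both i4F-Nes libraries than in both CTR libraries, as were 29.4% of all genes, and Bnip3 was lower in both, as were 9.63%. With the 2 reprogrammed classes left out Bnip3 was not lower, at 27.7 and 28.8 CPM in i4F-Nes and 26.5 and 27.6 CPM in CTR. Aldoa and Tpi1 then overlapped between the groups, while Slc16a3 did not. In this sum, more cells of a class and more transcripts per cell cannot be told apart. Without the reprogrammed cells the log2 change was 1.22 (adjusted p = 0.435). With 1 library left in an arm the fold stayed near its size but the call was lost, without i4F-Nes replicate 1 (1.55, adjusted p = 0.103) or without CTR replicate 2 (1.72, adjusted p = 0.0620). It was also lost after thinning (1.25, adjusted p = 0.208) and in cells without a Mki67 or Top2a UMI (1.18, adjusted p = 0.355).

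The other pathway genes were called in both directions between classes. Of 20 other glycolysis genes 8 were higher and 9 lower in radial glia than in neurons, and of 19 tested HIF and hypoxia genes 8 were higher and 5 lower, where 76.0% of all genes were called (35.3% higher and 40.6% lower), so these shares lie near the background. Aldoc, the aldolase of glial cells, stood at 395 to 692 CPM in radial glia and 0.914 to 3.25 CPM in neurons (log2 7.81 ± 0.33). Egln3, a prolyl hydroxylase that marks HIF for decay, stood at 34.2 to 56.0 CPM against 0.0964 to 0.378 CPM (log2 7.68 ± 0.24). Pfkp, a phosphofructokinase, went the other way with 2.36 to 3.89 CPM in radial glia and 19.3 to 38.2 CPM in neurons (log2 -3.37 ± 0.16), as did Ndrg1, a stress-induced gene (log2 -4.36 ± 0.28). Aldoc thus went with radial glia and Pfkp with neurons. Intermediate progenitors had 9 glycolysis genes higher and 10 lower than neurons and 10 hypoxia genes higher and 6 lower, where 64.8% of all genes were called. Egln3 (log2 6.49) and Aldoc (log2 5.96) were again furthest up, and Pfkp (log2 -4.11) and Eno2, the neuronal enolase (log2 -3.21), furthest down. Against intermediate progenitors, radial glia had 4 glycolysis genes higher and 3 lower, with Aldoc at log2 1.84, and 1 hypoxia gene higher (Egln3, log2 1.19) and 7 lower, among them Ndrg1 (log2 -3.43) and Ddit4 (log2 -1.07), an inhibitor of mTORC1 signalling, where 38.7% of all genes were called.

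Reprogrammed progenitor-like cells had 8 other glycolysis genes higher and 8 lower than radial glia, and 4 of 19 hypoxia genes higher and 5 lower, where 44.0% of all genes were called (24.8% higher and 19.3% lower). Slc2a3, the glucose importer GLUT3, stood at 50.1 and 30.1 CPM in them and 4.23 and 6.01 CPM in the radial glia of the same libraries (log2 3.11 ± 0.27). Epas1, which encodes HIF-2alpha, had 125 UMIs in these cells and 3 in radial glia of the 2 i4F-Nes libraries, a ratio of CPM of 23.9 with a 95% counting interval of 7.99 to 117. Ndrg1 was higher (log2 2.69 ± 0.43) and Aldoc lower (log2 -1.75 ± 0.35). Neuron-like reprogrammed cells had 3 glycolysis genes higher and 9 lower than neurons and 5 hypoxia genes higher and 3 lower, where 52.7% of all genes were called. Egln3 (log2 3.88) and Ddit4 (log2 2.32) were furthest up and Pfkfb3 (log2 -2.24), a regulator of phosphofructokinase, and Pfkp (log2 -1.74) furthest down. Between i4F-Nes and CTR 0 of these pathway genes were called in any of the 3 native classes or in all kept cells, with 1 to 3 of each list at an unadjusted p under 0.05 by edgeR in each comparison.

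Across the 16 summed profiles of class and library, Pgk1 followed the mean of the other 9 genes most closely (Pearson r = 0.980) and Bnip3 least (r = 0.141), with Aldoa next to last (r = 0.602). Of 7453 genes outside the pathway lists with a mean of at least 20 CPM, Mcm2 (r = 0.968) had the pattern most like the mean of the 10 genes, followed by Rfwd3 and Rgs3 (r = 0.963 for each). The profiles share libraries and fall into 5 classes, so these coefficients describe class differences and carry no p.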

How the data were processed

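Droplet libraries (10x 3′ chemistry) of papain-dissociated rostral cortex were made from 2 i4F-Nes and 2 CTR samples. The deposited matrices hold raw UMI counts per gene and barcode that the authors made with cellranger 7.0.1, per the file headers, on mm10, per the submitters' processing notes. Whether introns were counted is not given in the sources used here. Barcodes with at least 1000 UMIs, 500 genes and at most 10% mitochondrial UMIs were taken, and the highest Scrublet scores were removed as doublets (0.8% per 1000 barcodes; 1655 barcodes) with scanpy 1.11.5 in Python 3.11.15. Cells were gated in a fixed order on marker UMIs. Radial glia had at least 4 UMIs over 3 of their 5 markers, intermediate progenitors at least 3 of Eomes, neurons at least 3 of Neurod2 and Neurod6, and reprogrammed cells at least 4 over 2 of 8 markers. Counts were summed per library and class and tested with edgeR 4.0.16 in R 4.3.3 (TMM scaling, filterByExpr, robust quasi-likelihood F-test, Benjamini-Hochberg adjustment over all genes, 0.05). i4F-Nes was compared with CTR in each class, and classes in 1 fit of 16 profiles with the library as a block. The fits were run on simulated counts with known changes. The simulated spread was fixed and not taken from these libraries, so the run gives no error rate for these data. DESeq2 1.42.0, other scalings, filters, gates, thinning and left-out libraries were the alternatives. All 10 genes were tested and counted in every comparison, though not each is named in each. Other pathway genes are given as counts with the largest called changes named. The members, lists and reprogrammed markers were chosen with earlier results of these data known. Intervals cover counting error only. Coordinates and promoter sequences are from RefSeq, GRCm38.p6.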

Additional observations from a re-analysis of the deposited data

How the results depend on the processing

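In the 2 comparisons with neurons, 10 genes were called whichever library was left out (10 to 10). Leaving out a library gave 0 to 0 calls for i4F-Nes against CTR in radial glia, 0 to 1 in intermediate progenitors, 0 to 0 in neurons and 0 to 1 in all kept cells. It gave 2 to 3 for radial glia against intermediate progenitors, 4 to 4 for progenitor-like reprogrammed cells, 6 to 8 for neuron-like ones and 0 to 1 for the difference of effects between radial glia and neurons. Same-numbered libraries of the 2 groups deviated together (r = 0.560 in radial glia, 0.373 in intermediate progenitors and 0.789 in neurons). They also had like median depths, 15181 and 15188 UMIs per cell in replicate 1 and 11405 and 11633 in replicate 2. The labels name no source that they share, and with 2 pairs a shared batch was not tested. With the replicate block edgeR called 2 genes in radial glia (Bnip3, 0.62, adjusted p = 0.0137, and Slc16a3, 1.04, adjusted p = 0.0150), 1 in intermediate progenitors (Tpi1, 0.67, adjusted p = 0.0256), 2 in neurons (Pgk1, -0.28, adjusted p = 0.0156, and Pkm, -0.33, adjusted p = 0.0171) and 1 in all kept cells. With no replicate block 2 were called for progenitor-like and 5 for neuron-like reprogrammed cells. With no filter on low counts 1 was called in intermediate progenitors (Slc16a3, adjusted p = 0.00876) and 1 for the difference of effects (Aldoa, 0.59, adjusted p = 0.0314). After thinning 0 were called in all kept cells, 8 for radial glia against intermediate progenitors and 5 for neuron-like reprogrammed cells. In cells without a Mki67 or Top2a UMI, an alternative chosen after seeing the data, 0 were called in all kept cells and 8 for progenitor-like reprogrammed cells, Bnip3 turned to 0.10 for radial glia against neurons, and Aldoa turned to 0.0099 for radial glia against intermediate progenitors. Without the cells of the 2 reprogrammed classes, also added later, 0 were called in all kept cells. The causes were not tested. Over all genes, i4F-Nes against CTR in all kept cells gave 482 calls by edgeR, 1221 by DESeq2 and 893 with no filter. With no filter, 99 genes were called in radial glia, 115 in intermediate progenitors and 116 for the difference of effects, against 0 each with it. The replicate block gave 466 of 13180 genes in radial glia, 74 of 10889 in intermediate progenitors and 865 of 16431 in neurons. Of 50 gene results not past an unadjusted p of 0.05, 30 changed sign and 13 passed the threshold under at least 1 alternative. Library-size scaling and the reprogrammed gate applied first were also added after seeing the data. Depth limits Slc16a3 most, with 5 and 6 UMIs in CTR intermediate progenitors.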

Other observations

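Slc2a1 stood far higher in the endothelial gate than in any neural class, at 1079 CPM in i4F-Nes replicate 2 and 1164 and 1119 CPM in CTR replicates 1 and 2, from 38, 21 and 19 cells. In i4F-Nes replicate 1, with 12 cells, it stood at 174 CPM. GLUT1 is known as the glucose carrier of the blood-brain barrier. No comparison of the groups was made in the interneuron gate, because its i4F-Nes cells held Nanog at 103 and 53.0 CPM, against 0 in both CTR libraries, and the 8 reprogrammed markers summed to 2406 and 1432 CPM there, against 4.85 and 2.52 CPM.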
